A study of Homo sapiens with 6 samples.

Results

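The genes described here are 49 interferon-stimulated genes, measured by RNA sequencing in MiaPaCa2 cells, a human pancreatic ductal adenocarcinoma line, with and without knockdown of PPP2R1A. Members were the rows of the count table that carry 1 of 49 gene symbols, out of 42540 rows in all, and the rule itself uses no measured value. Control cells (3 libraries) carried CasRx, a Cas13d enzyme that a guide RNA directs to cleave a chosen transcript, without a guide. Knockdown cells (3 libraries) carried CasRx and a guide against PPP2R1A, the scaffold that joins the catalytic and regulatory subunits of the phosphatase PP2A. In both groups CasRx had been brought in by a transposon. The study describes a lentiviral guide vector and puromycin selection for the knockdown cells only, as a stable population of this single line. Any effect of the vector, the guide or the selection cannot be told apart from that of the knockdown in this design. The study describes the libraries of a group as independent replicates generated over 3 weeks. No source used here says whether they came from separate transductions, so the spread behind each p-value may be technical.

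Interferons are secreted proteins that bind receptors on the cell surface and, through the JAK kinases, activate transcription factors of the STAT family. Type I and type III interferons lead to a complex with STAT2 and IRF9 that binds the interferon-stimulated response element (ISRE), whereas type II interferon leads to STAT dimers at gamma-activated sites (GAS). The induced genes encode sensors of foreign nucleic acids, proteins that block viral RNA or entry, and enzymes that attach ISG15 or ADP-ribose to other proteins, and many are also transcribed at a low level in tumor cells without added interferon.

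The counts of a library summed to 28474154 to 34738517 in the controls and 33208669 to 45006732 in the knockdown cells. PPP2R1A was at 590, 624 and 648 CPM in control 1, 2 and 3 and at 143, 143 and 545 CPM in knockdown 1, 2 and 3, where CPM is the count scaled to a common library size after TMM normalization. Its log2 fold change over replicates 1 and 2 was -2.09 (adjusted p = 0.0107, edgeR), and the library labelled knockdown 3 lay close to the controls. Over the whole table, 322 genes were at least 4-fold apart between knockdown 1 and 2, 481 between control 1 and 2, and 383 and 425 between the library labelled knockdown 3 and control 1 and 2. Between knockdown 1 or 2 and control 1 or 2 there were 1078 to 1188, and control 3 stood apart from all others, with 1057 and 1064 against the other controls and 1023 to 1493 against the knockdown libraries.

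Markers of cell type moved between the same libraries. KRT8, a keratin of simple epithelia, was at 772, 900 and 2420 CPM in the controls and 4990, 5670 and 738 CPM in the knockdown libraries, and its partner KRT18 at 570, 691 and 1570 CPM against 3070, 3610 and 554 CPM. KRT19 was at 43.0, 46.1 and 77.6 CPM against 15.8, 11.6 and 75.0 CPM, and the mesenchymal filament VIM at 7350, 9940 and 10600 CPM against 3740, 4760 and 8540 CPM. Knockdown 1 and 2 thus had the highest KRT8 and KRT18 and the lowest KRT19 and VIM of the 6 libraries. The epithelial markers EPCAM and CDH1 held at most 6 counts. Of blood cell markers, PTPRC, CD3E, LST1, TYROBP and CLEC4C were at 0 in all 6 libraries, IL3RA had 5 to 11 counts, and CD68 had 42, 28 and 8 counts in the controls and 7, 15 and 132 in the knockdown libraries. Of endothelial markers, CDH5 had 84, 64 and 0 counts against 2140, 1701 and 155, VWF had 0 in each control against 56, 65 and 2, and PECAM1 was at 0 throughout. The fibroblast markers DCN, LUM and PDGFRB had at most 8 counts. The part of these shifts in the interferon-stimulated gene results was not tested.

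Promoters were read from RefSeq on GRCh38.p14, from 250 bases before to 50 bases after each transcription start, for the 40 of 49 members that the table of promoters held. The ISRE core GAAANNGAAA, where N is any base, was found on either strand in 28 of these 40 genes (70%), against 4.38% of all 27305 gene symbols with a promoter in the table. The shorter GAS core TTCNNNGAA, which reads the same on both strands and can overlap the ISRE core, was found in 12 of the 40 (30%), against 9.38% of all symbols. A promoter of 7 genes is printed because the gene passed the test in replicates 1 and 2, OAS3, PARP14, ISG20 and DTX3L with a rise and IFIT1, IFIT5 and IFIH1 with a fall. Capitals mark the ISRE core or its reverse complement, sequences run 5′ to 3′ along the gene, and each name is followed by the position and the strand.
OAS3, chr12:112938224-112938523, plus strand: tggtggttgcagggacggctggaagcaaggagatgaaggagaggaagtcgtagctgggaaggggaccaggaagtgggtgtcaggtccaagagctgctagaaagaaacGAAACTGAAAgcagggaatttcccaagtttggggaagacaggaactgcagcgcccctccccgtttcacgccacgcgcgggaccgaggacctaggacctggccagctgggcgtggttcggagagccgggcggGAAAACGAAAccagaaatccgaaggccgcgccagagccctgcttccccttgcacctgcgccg
PARP14, chr3:122680589-122680888, plus strand: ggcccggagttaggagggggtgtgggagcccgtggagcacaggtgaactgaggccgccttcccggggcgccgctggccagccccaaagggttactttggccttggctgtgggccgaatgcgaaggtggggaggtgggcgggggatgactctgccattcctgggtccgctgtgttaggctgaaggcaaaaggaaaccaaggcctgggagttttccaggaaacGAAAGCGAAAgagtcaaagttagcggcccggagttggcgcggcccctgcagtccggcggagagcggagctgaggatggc
ISG20, chr15:88638766-88639065, plus strand: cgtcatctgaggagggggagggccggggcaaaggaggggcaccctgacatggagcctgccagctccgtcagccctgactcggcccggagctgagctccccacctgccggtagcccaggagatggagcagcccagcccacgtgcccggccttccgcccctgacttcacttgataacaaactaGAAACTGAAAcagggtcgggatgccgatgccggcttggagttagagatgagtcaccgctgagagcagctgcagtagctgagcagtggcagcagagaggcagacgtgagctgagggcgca
DTX3L, chr3:122564088-122564387, plus strand: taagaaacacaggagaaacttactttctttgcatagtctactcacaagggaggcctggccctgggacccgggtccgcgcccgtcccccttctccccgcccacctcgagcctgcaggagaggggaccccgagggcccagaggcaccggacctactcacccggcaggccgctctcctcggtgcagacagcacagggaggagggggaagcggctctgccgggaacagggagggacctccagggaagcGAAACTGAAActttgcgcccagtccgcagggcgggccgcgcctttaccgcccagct
IFIT1, chr10:89392373-89392672, plus strand: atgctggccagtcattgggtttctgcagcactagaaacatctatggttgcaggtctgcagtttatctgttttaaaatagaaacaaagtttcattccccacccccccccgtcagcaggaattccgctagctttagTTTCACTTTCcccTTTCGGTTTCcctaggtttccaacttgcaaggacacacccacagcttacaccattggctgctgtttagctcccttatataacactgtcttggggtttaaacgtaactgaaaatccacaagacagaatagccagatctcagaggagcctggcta
IFIT5, chr10:89414318-89414617, plus strand: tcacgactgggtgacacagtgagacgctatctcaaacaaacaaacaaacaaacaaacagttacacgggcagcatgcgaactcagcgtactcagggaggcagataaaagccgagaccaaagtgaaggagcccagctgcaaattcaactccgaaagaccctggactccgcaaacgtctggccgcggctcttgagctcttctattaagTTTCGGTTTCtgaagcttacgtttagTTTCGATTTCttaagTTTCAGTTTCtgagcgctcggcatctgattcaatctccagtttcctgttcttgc
IFIH1, chr2:162318635-162318934, minus strand: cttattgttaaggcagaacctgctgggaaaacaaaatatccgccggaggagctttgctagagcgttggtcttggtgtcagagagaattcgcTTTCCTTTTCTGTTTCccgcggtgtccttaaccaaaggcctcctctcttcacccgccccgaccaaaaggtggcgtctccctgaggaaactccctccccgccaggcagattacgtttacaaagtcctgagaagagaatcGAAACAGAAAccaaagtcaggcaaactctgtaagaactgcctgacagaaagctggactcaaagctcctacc
In these windows the ISRE core lay on the gene's own strand in the promoters of the 4 genes that rose, and on the opposite strand in those of IFIT1 and IFIT5. It also lay on the opposite strand in IFIT3, which fell and is not printed, and in GBP3, whose fold change was positive. IFITM1, IFI6 and ISG15, which did not pass in replicates 1 and 2, held it on their own strand. A relation of strand to direction was not tested. IFIH1 held matches on both strands, of which the pair 159 and 153 bases before the start overlapped. The DTX3L window overlapped that of its divergent neighbour PARP9 by 137 bases, and 1 match, shared by both, was the only one in either window. Among the members that passed the test in replicates 1 and 2, all 8 with a promoter in the table held the ISRE core, whether they rose or fell, and so did members that did not pass, such as ISG15, MX1 and IFI6.

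Of the 49 genes, 45 had counts in at least 1 library, and TRIM22, IFI44L, XAF1 and EPSTI1 were at 0 in all 6. The 49 together held 0.0694%, 0.0658% and 0.0403% of the counts of control 1, 2 and 3 and 0.0842%, 0.0730% and 0.0575% of those of knockdown 1, 2 and the library labelled knockdown 3. In bulk RNA, fewer cells that express a gene and less RNA of it per cell cannot be told apart. IFI27, an interferon-induced mitochondrial protein, was at 0 in every control and in the library labelled knockdown 3, and had 17 and 6 counts in knockdown 1 and 2, at least 5.18-fold higher than a floor of 3 counts over both controls. CMPK2, GBP1, IFI27 and SAMD9L had too few counts for a test over all 6 libraries or in replicates 1 and 2. CMPK2, a mitochondrial nucleotide kinase, had 8 counts in control 2, 7 in knockdown 2 and 0 elsewhere, and GBP1 and SAMD9L had at most 4 counts in any library.

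**Figure D1:**
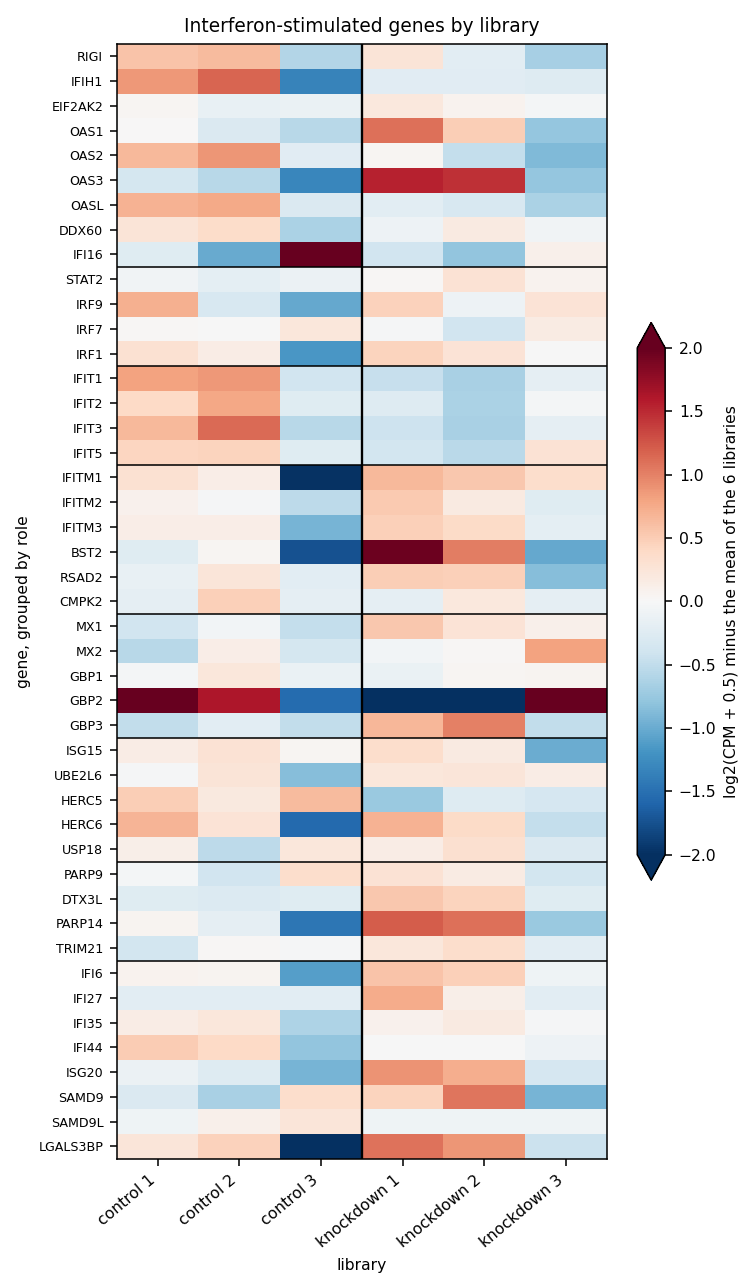
Level of each of the 45 genes with counts in each library, as log2(CPM + 0.5) minus the mean of the 6 libraries, in colour from blue (lower) to red (higher), with genes grouped by role and the control and knockdown libraries on either side of the vertical line. GBP2 is red in control 1 and 2 and in the library labelled knockdown 3 and blue in the other 3 libraries, and the column of control 3 is mostly blue.

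In replicates 1 and 2, interferon-stimulated genes moved in both directions. OAS3, PARP14, DTX3L and ISG20 rose in the knockdown cells, while GBP2, IFIT1, IFIT3, IFIT5, OASL and IFIH1 fell. Thus 4 of the 40 members tested were called higher, where 7.15% of all 15596 genes tested were, and 6 were called lower, where 6.41% of all genes were, by edgeR's quasi-likelihood test at an adjusted p under 0.05. The other 30 did not pass. Fold changes were positive for 25 members and negative for 15, with a median of 0.18 on the log2 scale, against a median of 0.01 and 50.9% positive over all genes. At an unadjusted p under 0.05 there were 22 of 40 members (55.0%) and 5128 of all genes (32.9%). With the replicate number taken as a block none of the 10 calls held, and no other gene of the whole table passed either. Leaving out any 1 of the 4 libraries leaves 1 library in a group, and no gene of the whole table kept a call there. These losses were therefore not particular to interferon-stimulated genes, and the directions of the 10 stayed the same.

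**Figure D2:**
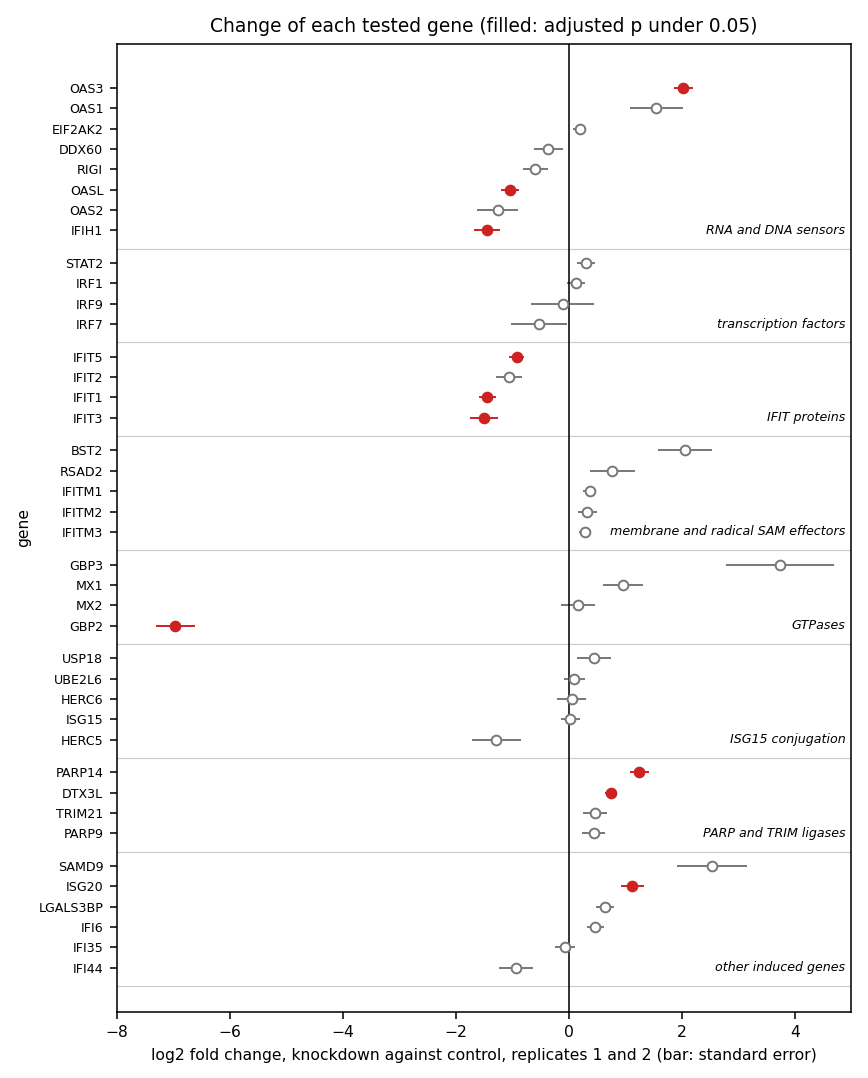
Log2 fold change of each of the 40 tested genes, knockdown against control in replicates 1 and 2, on the horizontal axis, with bars for the standard error and genes grouped by role. Filled red points passed an adjusted p of 0.05 in edgeR's test, 4 to the right and 6 to the left of 0, and all 4 IFIT genes lie left of 0.

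Among the 8 tested sensors of nucleic acids, 1 rose, 2 fell and 5 did not pass. OAS3, an oligoadenylate synthetase that is switched on by double-stranded RNA, was at 6.05, 5.15 and 2.85 CPM in control 1, 2 and 3 and at 23.6, 22.4 and 4.34 CPM in knockdown 1, 2 and 3. Knockdown 1 and 2 thus stood above every other library, and the library labelled knockdown 3 lay within the controls. The rise over replicates 1 and 2 was 4.08-fold, with a log2 fold change of 2.03 (SE 0.168, adjusted p = 0.0172, edgeR).

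OASL, a relative of the OAS enzymes without their synthetase activity, was at 14.6, 15.2 and 7.10 CPM in the controls and 7.60, 6.99 and 5.55 CPM in the knockdown libraries. Control 1 and 2 stood above the other 4 libraries, and control 3 lay among the knockdown libraries. Its log2 fold change over replicates 1 and 2 was -1.04 (SE 0.155, adjusted p = 0.0343, edgeR). OAS1 had 0.563, 0.360 and 0.219 CPM in the controls and 1.77, 0.980 and 0.117 CPM in the knockdown libraries, a log2 fold change of 1.55 that did not pass (adjusted p = 0.114, edgeR). OAS2, at 2.36, 2.85 and 1.06 CPM against 1.38, 0.810 and 0.492 CPM, had a log2 fold change of -1.26 and did not pass either (adjusted p = 0.103, edgeR). OAS1, OAS2 and OAS3 are neighbours on chromosome 12, and their fold changes in replicates 1 and 2 had different signs.

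IFIH1, which encodes MDA5, a cytosolic sensor of long double-stranded RNA, was at 4.64, 5.84 and 0.626 CPM in the controls and at 1.93, 1.92 and 1.87 CPM in the knockdown libraries. The knockdown libraries lay close together, between control 1 and 2 above them and control 3 below. Its log2 fold change over replicates 1 and 2 was -1.45 (SE 0.225, adjusted p = 0.0359, edgeR). RIGI, the related sensor of short triphosphate RNA, stood at a log2 fold change of -0.59 (adjusted p = 0.176, edgeR), and its row shares a locus with TOPORS, so reads of these genes may have been divided between them. EIF2AK2, the kinase PKR that halts translation on binding double-stranded RNA, was the most abundant member, with 163, 143 and 145 CPM in the controls and 184, 167 and 154 CPM in the knockdown libraries, and the groups overlapped. DDX60 stood at a log2 fold change of -0.36 (adjusted p = 0.405, edgeR). IFI16, a DNA sensor, had 4.51 CPM in control 3 and at most 0.586 CPM in the other libraries, and was not tested in replicates 1 and 2.

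The IFIT genes, whose proteins bind foreign RNA and restrain its translation, were lower in knockdown 1 and 2 than in control 1 and 2 without exception, and 3 of the 4 passed. IFIT1, which recognises RNA caps without methylation, was at 38.2, 39.7 and 16.4 CPM in the controls and 15.5, 13.5 and 19.0 CPM in the knockdown libraries. Control 1 and 2 were high, and the other 4 libraries lay together. Its log2 fold change over replicates 1 and 2 was -1.44 (SE 0.144, adjusted p = 0.0212, edgeR). IFIT3, a partner that steadies IFIT1, was at 18.5, 26.0 and 7.76 CPM against 8.56, 7.25 and 10.2 CPM, with a log2 fold change of -1.50 (SE 0.249, adjusted p = 0.0397, edgeR). IFIT5 was at 36.1, 36.5 and 22.4 CPM against 20.5, 18.2 and 32.8 CPM, with a log2 fold change of -0.92 (SE 0.134, adjusted p = 0.0336, edgeR). In both genes control 1 and 2 stood above all 4 other libraries, and for IFIT5 the library labelled knockdown 3 came next. IFIT2 was at 45.0, 58.6 and 28.8 CPM against 28.3, 21.7 and 33.1 CPM, with a log2 fold change of -1.06 that missed the threshold (adjusted p = 0.0590, edgeR).

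The 4 IFIT genes lie side by side on chromosome 10, and the median gene around them was lower as well. In each library the median deviation of the 100 nearest genes from their own means was taken. The knockdown minus control difference of these medians was -0.46 for IFIT2 and -0.45 for the other 3 on the log2 scale. Neighbours had a mean of at least 5 CPM, and the other IFIT genes were among them. Measured against those neighbours, IFIT1 still passed, with a log2 fold change of -0.99 (adjusted p = 0.0410, edgeR), while IFIT3 at -1.05 (adjusted p = 0.0873, edgeR) and IFIT5 at -0.47 (adjusted p = 0.127, edgeR) did not. Of the members called elsewhere in the genome, ISG20 also lost its call against its neighbours, with a log2 fold change of 1.06 (adjusted p = 0.0663, edgeR), and the others kept it.

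GBP2, a guanylate-binding protein that coats intracellular pathogens and vacuoles, had the largest fold change in size of the 40 members tested in replicates 1 and 2. Its counts were 260, 187 and 10 in control 1, 2 and 3 and 2, 3 and 394 in knockdown 1, 2 and 3, or 9.15, 6.74 and 0.313 CPM against 0.0552, 0.0639 and 9.23 CPM. Control 1 and 2 and the library labelled knockdown 3 were high, and the remaining 3 libraries were near 0. The log2 fold change over replicates 1 and 2 was -6.97 (SE 0.344, adjusted p = 0.0118, edgeR), and the row shares a locus with GBP7. GBP3 went the other way, with 3 counts over control 1 and 2 and 65 over knockdown 1 and 2, a ratio of 14.6 with a 95% counting interval of 4.79 to 72.8, and did not pass (adjusted p = 0.0826, edgeR). MX1 and MX2, the dynamin-like GTPases that trap viral nucleocapsids, had log2 fold changes of 0.96 (adjusted p = 0.155, edgeR) and 0.16 (adjusted p = 0.752, edgeR). MX1 had 15 to 22 counts in the controls and 40 to 53 in the knockdown libraries, and MX2 was highest in the library labelled knockdown 3, at 19.2 CPM, against 7.14 to 11.8 CPM in the others.

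**Figure D3:**
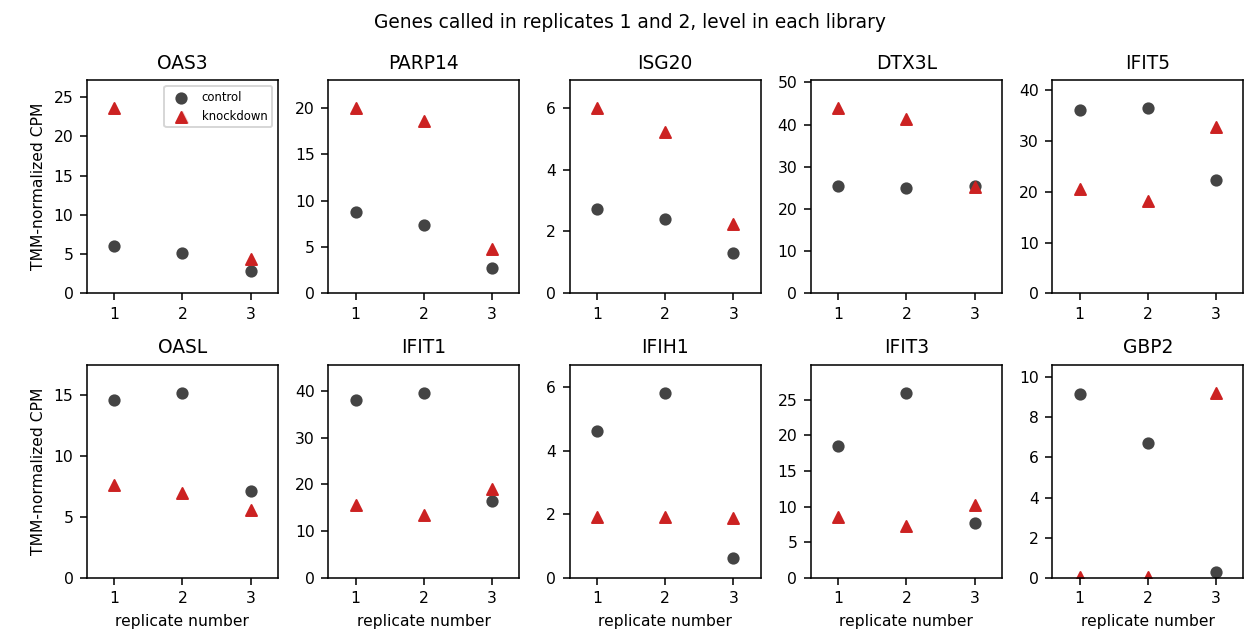
TMM-normalized CPM of the 10 genes called in replicates 1 and 2, by replicate number, with grey circles for control and red triangles for knockdown libraries, 1 point per library and each vertical axis from 0. Control and knockdown stand far apart at numbers 1 and 2, and at number 3 the knockdown library lies above the control for 8 of the 10 genes, the exceptions being DTX3L and OASL.

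Enzymes that attach ADP-ribose or ubiquitin were on the higher side, with positive fold changes for the 4 tested members and 2 calls. PARP14, a mono-ADP-ribosyltransferase, was at 8.73, 7.38 and 2.75 CPM in the controls and 20, 18.6 and 4.83 CPM in the knockdown libraries. Knockdown 1 and 2 stood above every other library, and its log2 fold change over replicates 1 and 2 was 1.25 (SE 0.168, adjusted p = 0.0302, edgeR). DTX3L, the ubiquitin ligase that pairs with PARP9, was at 25.4, 24.9 and 25.4 CPM against 43.9, 41.2 and 25.3 CPM. The controls and the library labelled knockdown 3 all lay between 24.9 and 25.4 CPM, and knockdown 1 and 2 stood above them, with a log2 fold change of 0.75 (SE 0.112, adjusted p = 0.0342, edgeR). PARP9, which shares its promoter region with DTX3L and lies in the same stretch of chromosome 3 as PARP14, had 8.02, 6.27 and 10.7 CPM against 10.2, 9.31 and 6.33 CPM, and did not pass (log2 fold change 0.44, adjusted p = 0.229, edgeR). TRIM21, a cytosolic antibody receptor and ubiquitin ligase, stood at a log2 fold change of 0.46 (adjusted p = 0.235, edgeR).

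ISG20, an exonuclease that degrades RNA, was at 2.71, 2.41 and 1.31 CPM in the controls and 5.99, 5.22 and 2.25 CPM in the knockdown libraries. Knockdown 1 and 2 stood above the other 4 libraries, and its log2 fold change over replicates 1 and 2 was 1.12 (SE 0.204, adjusted p = 0.0460, edgeR). SAMD9 had 0.281, 0.108 and 0.720 CPM in the controls and 0.801, 1.51 and 0 CPM in the knockdown libraries, and LGALS3BP, a secreted glycoprotein, had 22.1, 25.7 and 3.50 CPM against 40.1, 34.7 and 13.6 CPM. Neither passed, with log2 fold changes of 2.54 (adjusted p = 0.0764, edgeR) for SAMD9 and 0.64 (adjusted p = 0.0796, edgeR) for LGALS3BP. In each the control and knockdown ranges overlapped over the 6 libraries. IFI6, IFI35 and IFI44 had log2 fold changes of 0.47, -0.07 and -0.94, and none of these passed. IFI44 had 0 counts in control 3 and 13 to 21 in each other library.

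The membrane proteins that block viral entry or release did not pass in replicates 1 and 2, although the fold changes of the 5 members tested, RSAD2 included, were positive and 3 were at an unadjusted p under 0.05. IFITM3 was at 73.8, 73.9 and 35.1 CPM in the controls and 93.1, 87.3 and 58.5 CPM in the knockdown libraries (log2 fold change 0.28, adjusted p = 0.130, edgeR). IFITM1 was at 46.7, 41.4 and 9.26 CPM against 59.3, 55.4 and 48.5 CPM (log2 fold change 0.37, adjusted p = 0.115, edgeR), and IFITM2 had a log2 fold change of 0.33. Control 3 was the lowest library for each of the 3 IFITM genes, and IFITM1 and IFITM2 share a locus in the table, so their reads may have been divided between them. BST2, the tetherin that holds budding virus at the cell surface, had 26, 34 and 0 counts in the controls and 218, 136 and 14 in the knockdown libraries, with a log2 fold change of 2.05 that did not pass (adjusted p = 0.0706, edgeR). RSAD2, the radical SAM enzyme viperin, had 9, 16 and 9 counts in the controls and 28, 36 and 0 in the knockdown libraries (log2 fold change 0.77, adjusted p = 0.273, edgeR).

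The ISG15 system and the transcription factors of the pathway had no call in replicates 1 and 2, with 1 of 5 and 0 of 4 members at an unadjusted p under 0.05. ISG15, a ubiquitin-like modifier, was at 11.6, 12.9 and 10.7 CPM in the controls and 13.4, 11.9 and 4.97 CPM in the knockdown libraries (log2 fold change 0.03, adjusted p = 0.909, edgeR). The library labelled knockdown 3 was the lowest and the other 5 overlapped. HERC5, the ligase that couples ISG15 to new proteins, was at 1.58, 1.19 and 1.81 CPM against 0.387, 0.746 and 0.680 CPM, with a log2 fold change of -1.28 that did not pass (adjusted p = 0.133, edgeR). HERC6, UBE2L6 and USP18 had log2 fold changes of 0.05, 0.10 and 0.44, and HERC6 was lowest in control 3, at 1.19 CPM, against 3.05 to 7.49 CPM in the others. STAT2 was at 19.3, 17.7 and 18.6 CPM against 20.7, 25.0 and 21.3 CPM (log2 fold change 0.30, adjusted p = 0.289, edgeR), and IRF1 at 15.1, 13.5 and 5.16 CPM against 16.7, 14.7 and 12 CPM (log2 fold change 0.13, adjusted p = 0.646, edgeR). IRF9 and IRF7 were at 3.03 CPM or less, with log2 fold changes of -0.11 and -0.53, and IRF9 shares a locus with RNF31.

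Over all 6 libraries none of the 40 members tested passed edgeR's test, where 0.00% of 15386 genes were called higher and 0.00650% lower. The smallest adjusted p of a member was 0.581, 5 members (12.5%) and 1267 of all genes (8.23%) were at an unadjusted p under 0.05, and DESeq2 called no member either. Without the library labelled knockdown 3, edgeR called OAS3 alone among the members, with a log2 fold change of 2.29 (adjusted p = 0.0408). In that setting 363 of all 15922 genes tested were called higher and 341 lower. Every knockdown library stood above every control for STAT2, IFITM1 and MX1, which is 3 of 40 members, where 7.41% of all genes did. HERC5 was the 1 member with every knockdown library below every control, where 6.56% of all genes were.

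The difference between knockdown and control changed from replicates 1 and 2 to replicate 3 for IFIH1, GBP2 and IFITM1. The interaction term passed in the higher direction for these 3 of 40 members, where it passed for 2.35% of all genes, and in the lower direction for no member, where it passed for 2.19%. Single libraries of replicate 3 were assumed to vary like the others. In GBP2 the log2 difference between knockdown and control was -6.37, -5.82 and 4.65 in replicates 1, 2 and 3, and the interaction was 11.83 (adjusted p = 0.0180, edgeR). In IFIH1 it was -1.24, -1.58 and 1.50, with an interaction of 3.02 (adjusted p = 0.0475, edgeR), and in IFITM1 it was 0.34, 0.42 and 2.38, with an interaction of 2.01 (adjusted p = 0.0370, edgeR). In IFIH1 and IFITM1 the library labelled knockdown 3 was near knockdown 1 and 2 and control 3 was low, while in GBP2 control 3 was low and the library labelled knockdown 3 was high. None of these calls held when control 1, control 2, knockdown 1 or knockdown 2 was left out (adjusted p of 0.0554 to 0.159, edgeR). The interactions of the IFIT genes did not pass, with 1.64 (adjusted p = 0.0541, edgeR) for IFIT1, 1.46 (adjusted p = 0.0559, edgeR) for IFIT5, 1.89 (adjusted p = 0.0871, edgeR) for IFIT3 and 1.25 (adjusted p = 0.137, edgeR) for IFIT2.

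In replicate 3 most interferon-stimulated genes had lower levels than in control 1 and 2, in both groups, although no gene passed the test of replicate 3 described below. Against the mean of control 1 and 2, the median log2 ratio of the 40 members was -0.94 in control 3 and -0.31 in the library labelled knockdown 3, and 0.25 and 0.13 in knockdown 1 and 2. In control 3, 29 of 40 members were below both of these controls, where 39.6% of all genes were, and 19 were at least 2-fold below their mean, where 10.0% of all genes were. In the library labelled knockdown 3 these numbers were 26 of 40, where 30.2% of all genes were, and 13 of 40, where 3.11% of all genes were. PARP14 in replicate 3 was at 2.75 and 4.83 CPM, lower than in any library of replicates 1 and 2, and the same held for OAS3, ISG20 and LGALS3BP. Above the mean of control 1 and 2 were 9 of 40 members in control 3, IFI16 among them, where 49.8% of all genes were. In the library labelled knockdown 3 there were 11 of 40, GBP2 among them, where 52.7% of all genes were.

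A test of replicate 3 against replicates 1 and 2, added after these levels had been seen and with the knockdown as a covariate, called no gene in either direction (0.00% of 15386 each, edgeR). The log2 difference was negative for 33 of 40 members, against 48.0% of all genes, with a median of -0.65 against 0.02. At an unadjusted p under 0.05 there were 15 members and 1596 of all genes (10.4%), and the smallest adjusted p of all genes was 0.127. PARP14 had a log2 difference of -1.77 (adjusted p = 0.187, edgeR) and LGALS3BP of -2.06 (adjusted p = 0.260, edgeR). The knockdown covariate treated the library labelled knockdown 3 like knockdown 1 and 2, although PPP2R1A was at 545 CPM in it against 143 CPM in both. The log2 difference therefore also holds any loss of the knockdown effect in that library, whose part was not tested. Replicate number and week of culture cannot be told apart in this design.

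**Figure D4:**
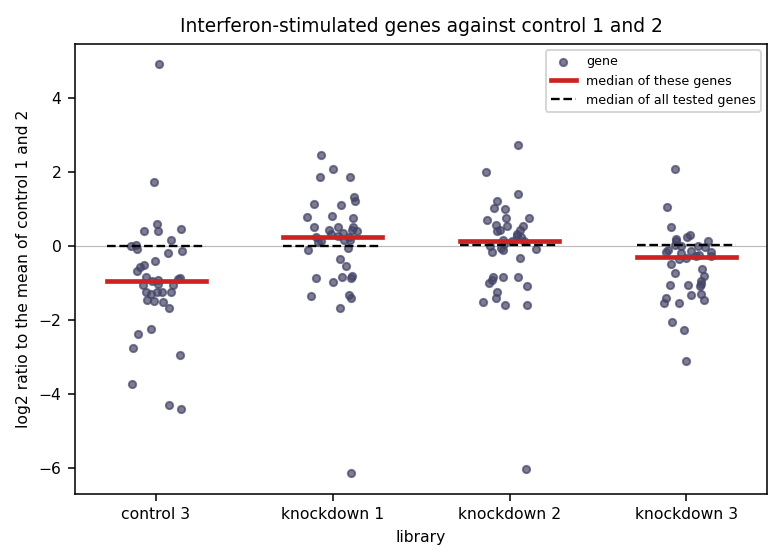
Log2 ratio of each of the 40 tested genes to the mean of control 1 and 2, by library, with points for genes, red lines for their median and dashed lines for the median of all tested genes. The median is -0.94 in control 3 and -0.31 in the library labelled knockdown 3, below those of knockdown 1 (0.25) and knockdown 2 (0.13).

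Upstream of these genes, the calls in replicates 1 and 2 fell only among genes that act on the induction of interferon. Of 21 interferon ligands, 19 were at 0 in every library, IFNL1 had 15 counts in knockdown 2 only, and IFNL2 had 2 counts in control 1 and 4 in knockdown 2. None of the 9 tested genes for receptors and signal transducers passed edgeR's test in replicates 1 and 2, and 2 were at an unadjusted p under 0.05. The log2 fold change of the kinase TYK2 was -0.38 (adjusted p = 0.0648, edgeR) and that of the receptor chain IFNAR2 was 0.94 (adjusted p = 0.0838, edgeR). None of 7 negative regulators of the pathway passed, and 2 were at an unadjusted p under 0.05.

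Of 17 tested genes that promote or restrain the induction of interferon, 1 was called higher and 3 lower in replicates 1 and 2. Over all genes the shares were 7.15% and 6.41%. At an unadjusted p under 0.05 there were 9 of the 17 (52.9%), against 32.9% of all genes (edgeR). The 3 genes called lower were MYD88, TREX1 and MAVS. MYD88, the adaptor of Toll-like and interleukin-1 receptors, was at 9.54, 10.3 and 7.32 CPM in the controls and 0.635, 0.362 and 8.20 CPM in the knockdown libraries, a log2 fold change of -4.32 (adjusted p = 0.0172, edgeR). TREX1, the exonuclease that clears DNA from the cytosol, had 85 counts over control 1 and 2 and 1 over knockdown 1 and 2 (adjusted p = 0.0200, edgeR), and 132 and 27 counts in control 3 and the library labelled knockdown 3. The TREX1 row shares a locus with another gene, so reads may have been divided between them. MAVS, the mitochondrial adaptor of RIGI and MDA5, was at 256, 272 and 236 CPM against 184, 189 and 257 CPM, a log2 fold change of -0.51 (adjusted p = 0.0406, edgeR). In MYD88 and MAVS the library labelled knockdown 3 was at the level of the controls.

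A second list of 35 interferon-induced genes, of which 29 were tested, had 5 calls higher and 1 lower, against shares of 7.15% and 6.41% over all genes. LY6E, a membrane protein that hinders coronavirus entry, was at 166, 170 and 149 CPM in the controls and 397, 369 and 159 CPM in the knockdown libraries, a log2 fold change of 1.18 (adjusted p = 0.0160, edgeR). Knockdown 1 and 2 stood apart from the other 4 libraries. TDRD7, PLSCR1 and LAP3 rose by 1.35, 1.22 and 0.63 on the log2 scale (adjusted p of 0.0249, 0.0327 and 0.0385, edgeR). TNFSF10, the death ligand TRAIL, had 78 and 47 counts in knockdown 1 and 2 and 0 in the other 4 libraries, at least 28.2-fold higher than the floor of 3 counts over control 1 and 2 (adjusted p = 0.0476, edgeR). CASP1, the inflammasome protease, had 55 and 67 counts in control 1 and 2, 95 in the library labelled knockdown 3 and 0 in control 3 and knockdown 1 and 2, at least 60.2-fold lower in knockdown 1 and 2 by the same floor (adjusted p = 0.0223, edgeR). CASP1 was thus high and low in the same libraries as GBP2.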

How the data were processed

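RNA was sequenced from 3 control and 3 PPP2R1A knockdown libraries of MiaPaCa2 cells. The authors deposited counts per gene, as whole numbers, which they made with FastQC, STAR and StringTie. The sources used here name no version, setting, genome build, annotation or strand. StringTie derives counts from coverage, so they are estimates of read numbers. Of 42540 rows, 17321 were at 0 in every library, and 159 rows that repeated another row of the same gene were left out (at most 0.102% of a library). Of the 49 members, 7 stand on a locus row shared with another gene.

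Genes were tested with edgeR 4.0.16 in R 4.3.3 (filterByExpr, TMM, quasi-likelihood F test, Benjamini-Hochberg over all genes tested, adjusted p under 0.05) in replicates 1 and 2, since the study left out the third knockdown sample for its weaker knockdown, in all 6 libraries, and for the difference between replicate 3 and replicates 1 and 2. The code was tested on simulated data. DESeq2 1.42.0, limma-voom (limma 3.58.1), other scalings and filters, a replicate block, the 100 nearest genes as baseline and leaving out each library were tried as alternatives. Log2 ratios of single replicates used a prior count of 2. Bounds took 3 counts over a group as the floor, and like the 95% intervals they cover counting error only. Promoters were searched and figures drawn in Python 3.11.15 with pandas 2.3.3, numpy 2.4.6 and matplotlib 3.10.9. Genes named were those called, the 12 most abundant, those at least 4-fold apart between libraries with 20 counts or more, and the rest by name with fewer values. The members, the lists and the tests were chosen with earlier results of these data known. The results of some genes of the lists are not reported here.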

Additional observations from a re-analysis of the deposited data

Results flagged for a closer look

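For 3 genes the knockdown effect in replicate 3 differed from that in replicates 1 and 2 by edgeR's interaction test. The difference was 11.83 on the log2 scale for GBP2, 3.02 for IFIH1 and 2.01 for IFITM1. PPP2R1A, the targeted gene, had an interaction of 1.84 (adjusted p = 0.0256, edgeR), and it was at 545 CPM in the library labelled knockdown 3 against 143 CPM in both other knockdown libraries. In IFIH1 and IFITM1 the knockdown libraries were near each other and control 3 was at 0.626 and 9.26 CPM, the lowest level of each gene. In GBP2 control 3 was at 0.313 CPM and the library labelled knockdown 3 at 9.23 CPM. The part that the weaker knockdown and the state of control 3 play in these differences was not tested.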

How the results depend on the processing

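In replicates 1 and 2 (main counts 4 members higher and 6 lower, 1115 genes higher and 999 lower), DESeq2 called 8 members higher and 7 lower and 1847 genes higher and 1853 lower. With no filter 3 and 4 members and 822 and 558 genes were called, and against the 100 nearest genes 3 and 4 members and 814 and 497 genes. Scaling by library size alone called 1406 genes higher and 744 lower and the same number of members, 4 and 6. Deviations from the group mean had correlations between control and knockdown of -0.0182, -0.0324 and -0.122 for numbers 1, 2 and 3. The knockdown mean includes the library labelled knockdown 3 with its weaker knockdown, so these values cannot show whether the numbers pair the samples. The library names carry the same number in the control and the knockdown library of each replicate. The main tests were unpaired, and the replicate block is the setting that uses these numbers. With the replicate block edgeR called 0 members and 0 genes in either direction. There, 5162 genes were at an unadjusted p under 0.05 and the smallest adjusted p was 0.0630. Without each of the 4 libraries in turn the members and genes called were 0 to 0 in each direction, with 3377 to 4797 genes at an unadjusted p under 0.05. The cause of these losses was not tested, beyond the fewer libraries or degrees of freedom.

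Over all 6 libraries DESeq2 called 127 genes higher and 65 lower, and the block called 0 genes lower. Leaving out each library gave 0 to 1 member higher, 0 to 363 genes higher and 0 to 341 lower, the upper values without knockdown replicate 3. For the interaction, DESeq2 called 7 members higher and 2 lower and 1193 and 1131 genes, no filter called 202 and 176 genes and 2 members higher, and the replicate block called 0 members and 0 genes, with 4508 genes at an unadjusted p under 0.05. Leaving out each of control 1, control 2, knockdown 1 and knockdown 2 gave 0 to 0 members higher, 0 to 37 genes higher and 0 to 17 lower. Control 3 and knockdown 3 could not be left out of it. Of 1059 values of single genes, 964 kept their side of the threshold, 82 lost a call, 13 gained a call and 0 reversed. Depth limits CMPK2, GBP1, IFI27 and SAMD9L, which had too few counts to test.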
